A study of Arabidopsis thaliana with 48 samples.

Results

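A set of 10 genes of starch turnover was followed across shoots and roots of Arabidopsis thaliana: GWD1 (also SEX1, AT1G10760), PWD (AT5G26570), BAM1 (AT3G23920), DPE1 (AT5G64860), DPE2 (AT2G40840), ISA3 (AT4G09020), AMY3 (AT1G69830), MEX1 (AT5G17520), GBSS1 (AT1G32900) and APL3 (AT4G39210). They were chosen by locus as known enzymes or carriers of starch metabolism that are not among the starch genes the study names in its text. The choice was made with earlier results of these data known. All 10 of 10 were found among the 32678 gene identifiers of both count tables, and all 10 passed the filter (a summed count above 100) that left 21098 genes for testing. The mutant line was myc2-3, a T-DNA insertion mutant of the transcription factor gene MYC2, and it was set against jin1-8 pMYC2::MYC2-FLAG (here MYC2-FLAG). In that complemented line a myc2 mutant carries a transgene for FLAG-tagged MYC2 driven by its own promoter, so it is no untouched wild type. Plants of both lines were 5 weeks old and grew in FlowPots, a peat-based gnotobiotic system, under low photosynthetically active radiation (LP) or normal light (NC), with a synthetic community of bacteria, fungi and oomycetes (+BFO) or germ-free (−BFO). The 16 conditions of tissue, line, light and community had 3 libraries each, 48 in all, and all material was collected at the same morning hour.

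In leaves, starch is built in the chloroplast by day and broken down at night. Granule surfaces are first phosphorylated by the dikinases GWD1 and PWD, which lets amylases and debranching enzymes work on the glucans. The maltose that is released leaves the chloroplast through the carrier MEX1 and is converted in the cytosol by DPE2. On the synthetic side, ADP-glucose pyrophosphorylase, whose regulatory large subunits include APL3, supplies ADP-glucose, and GBSS1 makes the amylose part of the granule. Transcripts of many of these genes are known to cycle over the day.

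Reads counted on genes numbered 5162823 to 10395159 in the myc2-3 libraries and 6654213 to 11045467 in the MYC2-FLAG libraries. MYC2 (AT1G32640) had 5.48 to 17.8 CPM (library-size normalised read counts, scaled by edgeR's TMM method) in myc2-3 shoots against 54.3 to 410 CPM in MYC2-FLAG shoots, and 23.5 to 41.0 CPM in myc2-3 roots against 110 to 211 CPM in MYC2-FLAG roots. The 4 leaf markers (RBCS1A, RCA, LHCB1.3 and LHCB2.1) summed to between 37626 and 77629 CPM in shoots and to no more than 797 CPM in roots, while the 4 root markers (CASP1, ESB1, MYB36 and IRT1) summed to between 212 and 726 CPM in roots and to no more than 10.2 CPM in shoots. Each line was a sequencing project of its own, and effects of line and of project cannot be told apart. The study's methods also describe many viral reads in a number of myc2-3 samples that are not named, and their part in the differences between the lines was not tested. The condition labels of the lines also went against each other. When the mean profile of each condition was centred within its line and correlated over the 21098 genes between the lines, shoots with the same label gave r of 0.594 under NC +BFO and 0.703 under LP −BFO, but -0.33 under NC −BFO and -0.673 under LP +BFO. In roots, all 4 pairs with the same label gave negative r, between -0.761 and -0.499. Several profiles correlated positively across labels. In shoots, myc2-3 NC −BFO gave r = 0.82 with MYC2-FLAG LP +BFO, myc2-3 LP +BFO gave 0.639 with MYC2-FLAG NC +BFO, and myc2-3 NC +BFO gave 0.609 with MYC2-FLAG NC −BFO. In roots, myc2-3 −BFO paired with MYC2-FLAG +BFO (0.768 under NC, 0.578 under LP) and myc2-3 +BFO with MYC2-FLAG −BFO (0.773 under NC, 0.704 under LP). Whether condition labels were exchanged in one of the projects was not tested, and the files alone do not settle it. If they were, the LP +BFO counts, the turned order of GBSS1 and APL3 and the community responses in roots would belong to other conditions. Libraries were kept as labelled, and beside the single conditions the mean over the 4 conditions of a tissue is given, which does not depend on the order of conditions within a line. Results on light, on the community and on single conditions do depend on it.

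GWD1 and PWD, the dikinases that start starch breakdown, were lower in myc2-3 shoots than in MYC2-FLAG shoots, with the most negative mean log2 fold changes of the 10 genes. Averaged over the 4 conditions, PWD had a difference of -1.62 ± 0.06 (log2 fold change ± SE, adjusted p = 1.17e-22) and GWD1 of -1.21 ± 0.07 (adjusted p = 7.56e-18), and both were called, that is, differed by 1 or more on the log2 scale in either direction with an edgeR p under 0.05 after Benjamini-Hochberg adjustment. These 2 of 10 were called against 1.96% of all genes tested. Averaged over NC +BFO and LP −BFO only, the pair of conditions whose profiles correlated positively between the lines, PWD stayed called at -1.33 ± 0.09 (adjusted p = 1.02e-14), ISA3 was called at -1.08 ± 0.07 (adjusted p = 1.10e-14) and GWD1 came to -0.74 ± 0.09, with 2.48% of all genes called. This mean depends on the labels too. The NC +BFO profile of each line correlated more with another label of the other line (0.609 and 0.639) than with its own (0.594).

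PWD, the phosphoglucan water dikinase that acts on glucans already phosphorylated by GWD1, separated the lines in every shoot condition. Under LP +BFO it had 81.9, 73.6 and 78.0 CPM in myc2-3 shoots against 357, 313 and 382 CPM in MYC2-FLAG shoots, a log2 fold change of -2.17 ± 0.13. Under LP −BFO the values were 82.2, 114 and 81.2 CPM in myc2-3 shoots against 254, 214 and 224 CPM in MYC2-FLAG shoots, or -1.31 ± 0.13. The highest of all 12 myc2-3 shoot libraries, 123 CPM, lay below the lowest of the 12 MYC2-FLAG shoot libraries, 214 CPM. Under NC −BFO PWD had 95.8, 108 and 123 CPM in myc2-3 shoots against 394, 301 and 336 CPM in MYC2-FLAG shoots (-1.66 ± 0.13). Under NC +BFO it had 123, 119 and 122 CPM in myc2-3 shoots against 308, 273 and 344 CPM in MYC2-FLAG shoots (-1.34 ± 0.12). All 4 conditions were called, with adjusted p between 7.94e-17 and 5.98e-10.

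GWD1, the glucan water dikinase whose loss gives the starch excess phenotype sex1, was called in the conditions where the profiles of the lines went against each other. Under LP +BFO it had 307, 253 and 279 CPM in myc2-3 shoots against 1496, 1223 and 1476 CPM in MYC2-FLAG shoots, a log2 fold change of -2.32 ± 0.14 (adjusted p = 9.41e-17). Under NC −BFO it had 555, 571 and 639 CPM in myc2-3 shoots against 1306, 1048 and 1249 CPM in MYC2-FLAG shoots, or -1.03 ± 0.13 (adjusted p = 3.66e-08). Both sets of libraries were free of overlap, but the NC −BFO value lay at the threshold and fell short of it when any of 3 libraries was left out (replicate 1 of myc2-3, or replicate 1 or 3 of MYC2-FLAG), down to -0.96, and under DESeq2 (-0.95). Under NC +BFO and LP −BFO the log2 fold changes were -0.62 ± 0.13 and -0.86 ± 0.13, again without overlap. Over all shoots, GWD1 ranged from 253 to 639 CPM in myc2-3 and from 630 to 1496 CPM in MYC2-FLAG, so that 1 pair of libraries met at the edge.

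The stretch from 250 bases before to 50 bases after the annotated start of each gene was searched on both strands for the evening element AAAATATCT, for the G-box CACGTG, which MYC2 and related factors are known to bind, and for the CCA1-binding site AAAAATCT. The evening element is a known element of clock-controlled promoters. It was found in 4 of the 10 genes (GWD1, PWD, DPE1 and ISA3), against 2.82% of 27443 promoters of protein-coding genes, the G-box in 2 of 10 (DPE1 and ISA3) against 7.68%, and the CCA1-binding site in 1 of 10 (DPE2) against 7.88%. No match of one motif overlapped a match of another. The promoters with an evening element are printed because they include both dikinase genes and ISA3, 3 genes called lower in shoots of myc2-3 in more than 1 condition. For GWD1 and ISA3 the call under NC −BFO was lost under DESeq2. DPE1 has the element but was called in no single shoot condition, and AMY3, lower in all myc2-3 shoot libraries, lacks it. The sequences are taken from RefSeq's TAIR10.1 assembly, by locus, while the reads were counted on TAIR10. They run in the direction of the gene, with evening elements (AAAATATCT, or AGATATTTT where it lies on the other strand) and G-boxes in capitals.
GWD1, chr1:3590879-3591178, minus strand: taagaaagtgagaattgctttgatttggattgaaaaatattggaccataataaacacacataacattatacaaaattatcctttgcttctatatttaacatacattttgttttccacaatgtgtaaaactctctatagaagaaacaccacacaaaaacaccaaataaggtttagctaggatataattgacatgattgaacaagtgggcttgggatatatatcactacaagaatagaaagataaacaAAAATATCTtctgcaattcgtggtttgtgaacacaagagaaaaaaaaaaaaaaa
PWD, chr5:9261229-9261528, plus strand: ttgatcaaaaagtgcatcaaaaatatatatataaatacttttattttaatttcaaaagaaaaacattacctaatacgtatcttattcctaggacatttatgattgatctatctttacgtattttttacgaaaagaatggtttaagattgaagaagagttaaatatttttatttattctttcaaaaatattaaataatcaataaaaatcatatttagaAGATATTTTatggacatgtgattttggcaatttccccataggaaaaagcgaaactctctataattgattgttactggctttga
DPE1, chr5:25928830-25929129, minus strand: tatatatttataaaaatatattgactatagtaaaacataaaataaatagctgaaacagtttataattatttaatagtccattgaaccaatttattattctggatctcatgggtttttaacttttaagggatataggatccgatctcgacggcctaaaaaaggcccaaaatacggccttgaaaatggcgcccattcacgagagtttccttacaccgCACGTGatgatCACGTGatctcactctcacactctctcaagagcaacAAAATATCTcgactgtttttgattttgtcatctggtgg
ISA3, chr4:5783659-5783958, plus strand: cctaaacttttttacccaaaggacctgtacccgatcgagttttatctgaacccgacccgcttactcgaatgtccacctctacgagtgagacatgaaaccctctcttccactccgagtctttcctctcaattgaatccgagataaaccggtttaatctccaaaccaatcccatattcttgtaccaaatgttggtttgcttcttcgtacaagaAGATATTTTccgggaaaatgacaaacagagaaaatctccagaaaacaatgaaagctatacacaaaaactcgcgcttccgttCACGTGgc
In GWD1 the evening element began 4 bases before the annotated start, and in PWD and ISA3 it lay on the other strand, 33 and 39 bases before the start. In DPE1 it began 12 bases after the start, and a pair of G-boxes began 35 and 24 bases before the start. BAM1, AMY3, MEX1, GBSS1 and APL3 held none of the 3 motifs in this window. A match is a description of these letters only.

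ISA3, a debranching isoamylase of starch breakdown, and AMY3, a plastid alpha-amylase, also separated all 12 from all 12 shoot libraries. ISA3 ranged from 29.5 to 49.6 CPM in myc2-3 shoots (median 40.6) and from 57.2 to 93.9 CPM in MYC2-FLAG shoots (median 76.7). It was called under NC −BFO (-1.05 ± 0.10, which missed the threshold under DESeq2, -0.97, and without replicate 1 or 2 of myc2-3 or replicate 3 of MYC2-FLAG) and LP −BFO (-1.23 ± 0.10), and it came to -0.94 ± 0.10 under NC +BFO, -0.74 ± 0.10 under LP +BFO and -0.99 ± 0.05 over the 4 conditions. AMY3 ranged from 119 to 255 CPM in myc2-3 shoots (median 187) and from 280 to 419 CPM in MYC2-FLAG shoots (median 340). It was called under LP +BFO, with 146, 119 and 139 CPM in myc2-3 shoots against 406, 353 and 345 CPM in MYC2-FLAG shoots (-1.45 ± 0.11, adjusted p = 8.67e-14), and came to -0.90 ± 0.05 over the 4 conditions. The full separation of 12 from 12 libraries held for 3 of the 10 genes, PWD, ISA3 and AMY3, always with myc2-3 lower. Over all genes tested in shoots it held for 0.284%, with 54 genes lower and 6 higher in myc2-3. In roots it held for none of the 10 and for 0.0948% of all genes.

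**Figure D1:**
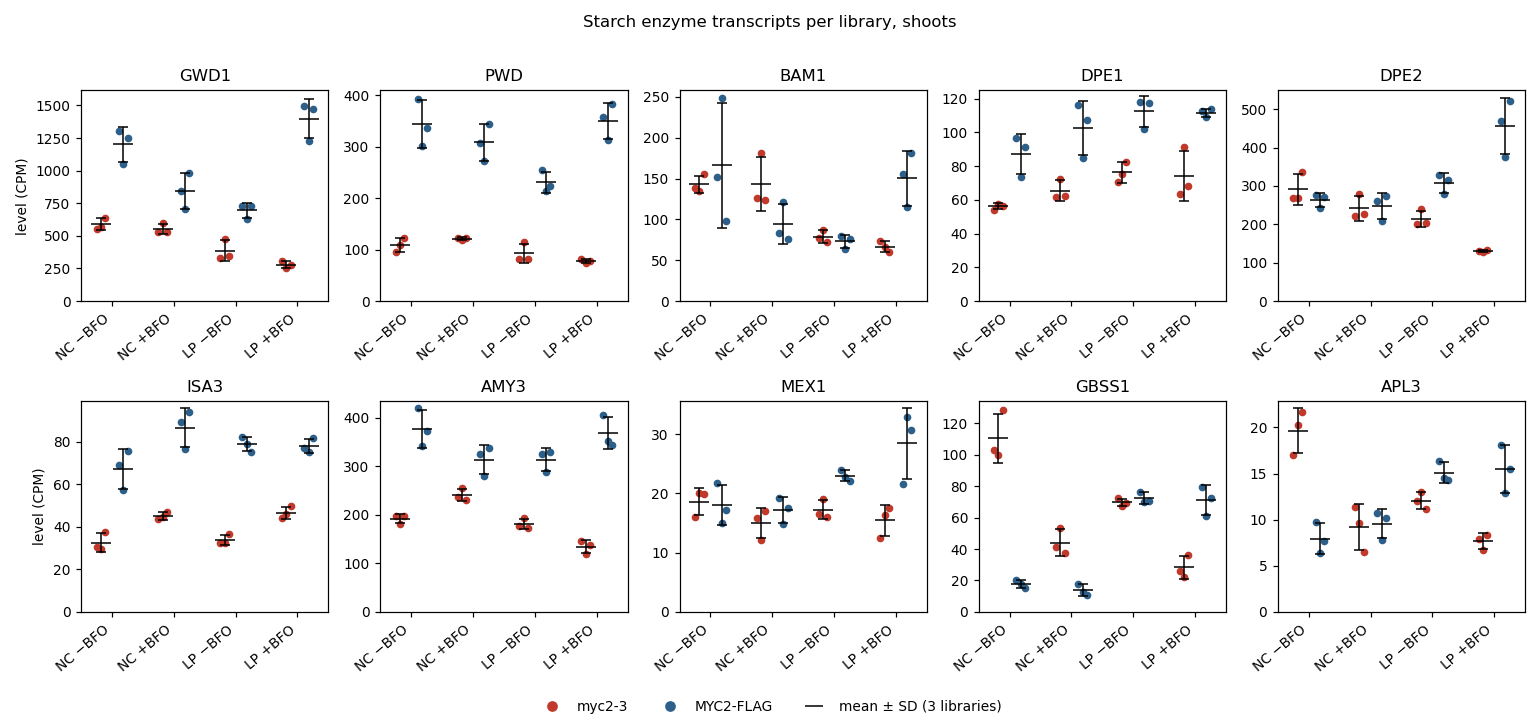
Levels of the 10 starch genes in every shoot library, in CPM on axes that start at 0, for the 4 conditions, with myc2-3 left of MYC2-FLAG; points are libraries and the black marks are the mean and SD of 3. PWD, ISA3 and AMY3 of all 12 myc2-3 libraries lie below all 12 MYC2-FLAG libraries, while GBSS1 changes its order between the lines from NC −BFO to LP +BFO.

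LP +BFO was the shoot condition with the highest number of starch genes called, all of them lower in myc2-3. There 6 of 10 were called, against 19.4% of all genes in either direction, and the median log2 fold change of the 10 was -1.24 against 0.03 over all genes. In the same comparison 2 of the 4 leaf markers were lower and 0 higher, with a median of -0.74, and their part in it was not tested. Besides GWD1, PWD and AMY3 the starch genes called were DPE2, BAM1 and GBSS1. DPE2, the cytosolic enzyme that uses maltose, had 130, 127 and 132 CPM in myc2-3 shoots against 469, 376 and 521 CPM in MYC2-FLAG shoots (-1.81 ± 0.13, adjusted p = 5.55e-15). BAM1, a plastid beta-amylase that releases maltose, had 73.8, 66.7 and 59.6 CPM in myc2-3 shoots against 156, 115 and 181 CPM in MYC2-FLAG shoots (-1.18 ± 0.19, adjusted p = 2.87e-06). MEX1, the maltose carrier, and APL3 came to -0.88 ± 0.21 and -0.9998 ± 0.21, and APL3 lay just short of the fold threshold, which it passed under DESeq2 (-1.11). DPE1, the plastid disproportionating enzyme, had 63.2, 91.1 and 68.0 CPM in myc2-3 shoots against 112, 109 and 114 CPM in MYC2-FLAG shoots (-0.60 ± 0.12), and its log2 fold change lay between -0.65 and -0.56 in all 4 conditions.

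In the other shoot conditions fewer of the genes were called, and only GBSS1 and APL3 were called higher in myc2-3. Under NC −BFO, 5 of 10 were called against 16.5% of all genes, with PWD, GWD1 and ISA3 lower and GBSS1 and APL3 higher in myc2-3. In the same comparison 1 of the 4 leaf markers was called higher and all 4 were positive, with a median of 0.47. Their part in it was not tested. Under NC +BFO, PWD was called lower and GBSS1 higher, 2 of 10 against 3.9%, and under LP −BFO, PWD and ISA3 were called lower, 2 of 10 against 3.59%. DPE2 and MEX1 were not called under any of these 3 conditions, with log2 fold changes between -0.52 and 0.14 for DPE2 and between -0.41 and 0.03 for MEX1. BAM1 also was not called there, and its NC −BFO libraries of MYC2-FLAG spread from 97.8 to 249 CPM.

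GBSS1, the granule-bound starch synthase, had the widest range of the 10 genes in shoots, with a ratio of 7.95 between its highest and its lowest condition mean. Under NC −BFO it had 103, 99.8 and 128 CPM in myc2-3 shoots against 20.5, 17.8 and 15.0 CPM in MYC2-FLAG shoots, a log2 fold change of 2.63 ± 0.19 (adjusted p = 2.50e-14). Under NC +BFO it had 41.3, 53.5 and 37.5 CPM in myc2-3 shoots against 18.1, 12.6 and 11.0 CPM in MYC2-FLAG shoots, or 1.65 ± 0.20 (adjusted p = 9.67e-08). Neither NC pair of groups overlapped, and myc2-3 was the higher line in both. Under LP −BFO the lines overlapped, with 72.3, 67.7 and 69.5 CPM in myc2-3 shoots against 76.6, 70.2 and 70.7 CPM in MYC2-FLAG shoots (-0.05 ± 0.17). Under LP +BFO GBSS1 had 26.0, 22.5 and 36.5 CPM in myc2-3 shoots against 79.8, 60.9 and 72.8 CPM in MYC2-FLAG shoots (-1.31 ± 0.19, adjusted p = 2.42e-07), so the order of the lines was turned round. Averaged over the 4 conditions GBSS1 came to 0.73 ± 0.09, short of the fold threshold.

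APL3, which is known to be induced by sugar, was the least abundant of the 10 per kilobase of exon in the shoots of both lines under NC −BFO and LP +BFO. Under NC −BFO it had 17.03, 20.2 and 21.7 CPM in myc2-3 shoots against 9.74, 6.41 and 7.71 CPM in MYC2-FLAG shoots (1.29 ± 0.20, adjusted p = 1.26e-06). Under LP +BFO it had 7.94, 6.67 and 8.36 CPM in myc2-3 shoots against 18.1, 12.9 and 15.5 CPM in MYC2-FLAG shoots. As for GBSS1, the lines did not overlap in either condition and their order was opposite. The mean over the 4 conditions was -0.02 ± 0.10.

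**Figure D2:**
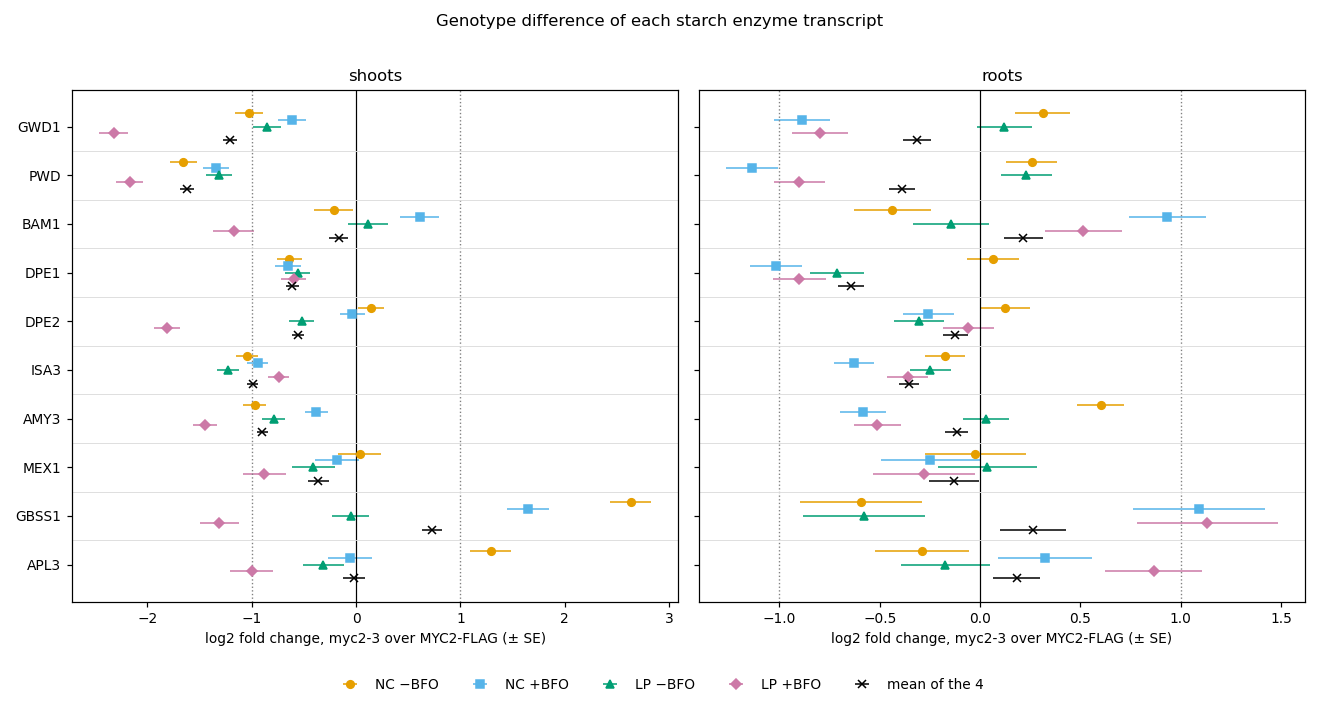
Log2 fold change of myc2-3 over MYC2-FLAG (± SE) for each starch gene in shoots and roots, by condition and as the mean of the 4; dotted lines mark the call threshold of 1 in either direction, and the axes of the panels differ. In shoots PWD lies beyond -1 in every condition and GBSS1 runs from 2.63 under NC −BFO to -1.31 under LP +BFO.

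Per kilobase of exon, GWD1 was the most abundant of the genes in shoots, with 55.5 ± 5.33 CPM per kilobase (SD, n = 3) in myc2-3 under LP +BFO and 278 ± 30.2 in MYC2-FLAG under LP +BFO. In MYC2-FLAG under that condition DPE2 followed with 134 ± 21.5 and AMY3 with 118 ± 10.5, and then PWD with 90.0 ± 9.001. In myc2-3 under the same condition PWD, at 19.97 ± 1.07, stood below AMY3 (43.1 ± 4.48), DPE2 (38.1 ± 0.80), DPE1 (36.6 ± 7.38) and BAM1 (26.5 ± 2.83). The order of the condition means of PWD in shoots began with MYC2-FLAG under LP +BFO, NC −BFO and NC +BFO, whose libraries overlapped from neighbour to neighbour, then came MYC2-FLAG under LP −BFO, and then the 4 myc2-3 conditions, again overlapping from neighbour to neighbour. In GBSS1 the order was led by myc2-3 under NC −BFO and closed by MYC2-FLAG under NC −BFO and NC +BFO, which overlapped each other.

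GBSS1 was the gene whose light response in shoots differed most between the lines. In MYC2-FLAG shoots it was higher under LP than under NC by 2.02 ± 0.19 without the community (adjusted p = 5.03e-11) and by 2.35 ± 0.20 with it (adjusted p = 1.08e-12). In myc2-3 shoots the same comparisons came to -0.66 ± 0.18 and -0.61 ± 0.19, neither called. The difference of the responses, averaged over the community, was -2.82 ± 0.19 (adjusted p = 1.33e-15). It was called for 3 of the 10 genes, against 18.5% of all genes, a count near that share. Besides GBSS1 these were APL3 (-1.27 ± 0.20) and DPE2 (-1.22 ± 0.12). DPE2 had log2 fold changes for light of -0.44 ± 0.12 and -0.90 ± 0.12 in myc2-3 shoots and of 0.22 ± 0.12 and 0.88 ± 0.12 in MYC2-FLAG shoots, without and with the community. In the difference of the light responses 2 of the 4 leaf markers were also called lower and 0 higher (median -0.81, 1 positive). In MYC2-FLAG shoots 2 of the 4 leaf markers were called higher under LP without the community (median 0.63) and 2 with it (0.73). Their part in these values was not tested.

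BAM1 was the other gene called for light. It was lower under LP in MYC2-FLAG shoots without the community, with 79.1, 64.4 and 76.0 CPM under LP against 152, 249 and 97.8 CPM under NC (-1.18 ± 0.19), and in myc2-3 shoots with it, with 73.8, 66.7 and 59.6 CPM under LP against 126, 182 and 123 CPM under NC (-1.10 ± 0.19). The first of these rests on the NC library with 249 CPM, without which it came to -0.78 and was not called, and the second on the NC library with 182 CPM, without which it came to -0.90. Of the 10 genes, 0 were called for light in myc2-3 shoots without the community (7.26% of all genes) and 1 with it (7.7%), while 2 were called in MYC2-FLAG shoots without the community and 1 with it (19% of all genes in each). For the first of these counts, edgeR gave 6 genes at an unadjusted p under 0.05, and limma-voom and DESeq2 called 0 too.

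The BFO community went with lower GBSS1 in myc2-3 shoots. Under NC it had 41.3, 53.5 and 37.5 CPM with the community against 103, 99.8 and 128 CPM without it (-1.33 ± 0.18, adjusted p = 1.77e-07), and under LP 26.0, 22.5 and 36.5 CPM with it against 72.3, 67.7 and 69.5 CPM without it (-1.28 ± 0.19, adjusted p = 1.87e-06). In MYC2-FLAG shoots the values were -0.35 ± 0.21 under NC and -0.03 ± 0.18 under LP. The responses differed between the lines under LP (-1.26 ± 0.26, adjusted p = 2.05e-04), and under NC the difference was -0.98 ± 0.28, just short of the fold threshold. APL3 was also lower with the community in myc2-3 shoots under NC (-1.10 ± 0.20, or -0.89 without replicate 3 with the community), where the difference between the lines was called at -1.35 ± 0.29 (adjusted p = 5.96e-04).

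In MYC2-FLAG shoots the community went with higher GWD1 and BAM1 under LP. GWD1 had 1496, 1223 and 1476 CPM with the community against 728, 630 and 731 CPM without it (1.01 ± 0.13), and BAM1 had 156, 115 and 181 CPM with it against 79.1, 64.4 and 76.0 CPM without it (1.04 ± 0.19). Both lay at the threshold, and neither was called when shoots were fitted without roots (0.96 for GWD1 and 0.996 for BAM1). Without replicate 3 with the community or replicate 2 without it both lost the call, and GWD1 also without replicate 1 with it, down to 0.94 for GWD1 and 0.89 for BAM1. In myc2-3 shoots under LP the same comparisons came to -0.46 ± 0.13 for GWD1 and -0.24 ± 0.19 for BAM1. The difference between the lines under LP was called for GWD1 (-1.46 ± 0.19), DPE2 (-1.29 ± 0.17), BAM1 (-1.29 ± 0.27) and GBSS1, 4 of 10 against 15.9% of all genes. Under NC it was called only for APL3, 1 of 10 against 11.2%, a share no higher than that of all genes. ISA3 had log2 fold changes for the community between 0.36 and 0.47 in both lines under NC and in myc2-3 under LP, none of them called, and -0.01 ± 0.10 in MYC2-FLAG under LP. The counts called for the community in shoots were 2 of 10 in myc2-3 under NC (14.6% of all genes), 1 in myc2-3 under LP (7.56%), 0 in MYC2-FLAG under NC (6.11%) and 2 in MYC2-FLAG under LP (9.78%). In MYC2-FLAG under NC, BAM1 was called lower without replicate 3 germ-free (-1.09) or replicate 2 with the community (-1.01). For the count of 0, edgeR gave 4 genes at an unadjusted p under 0.05, and limma-voom and DESeq2 called 0 as well.

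**Figure D3:**
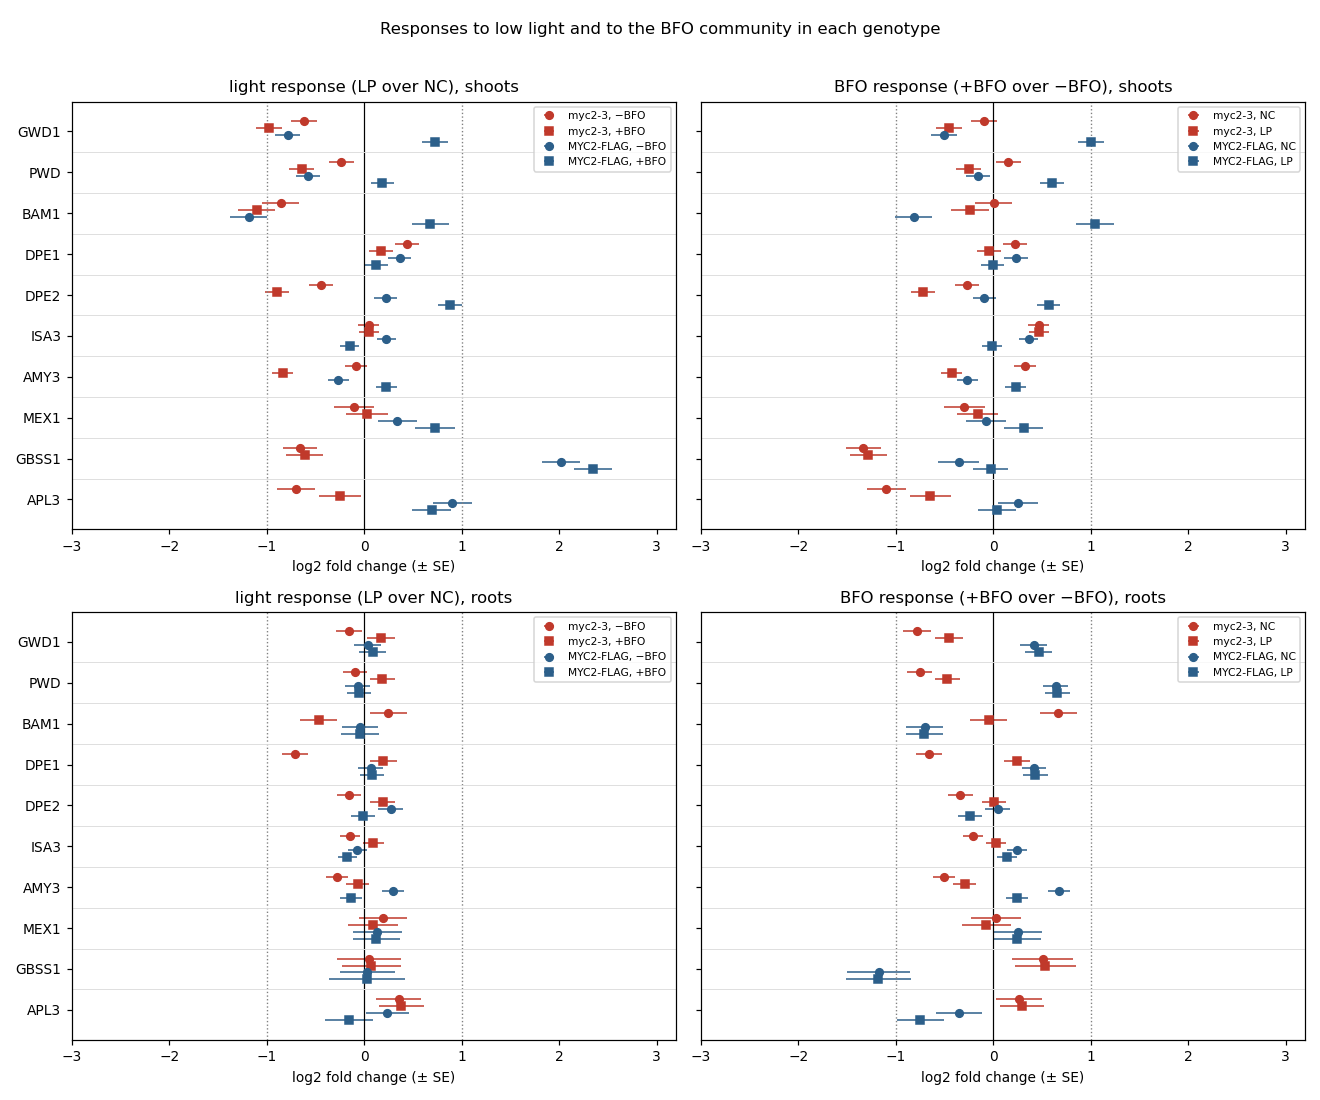
Log2 fold changes (± SE) for low light (LP over NC) and for the community (+BFO over −BFO) in myc2-3 and in MYC2-FLAG, for each starch gene in shoots and roots; dotted lines mark the call threshold. GBSS1 in shoots lies at 2.02 and 2.35 for light in MYC2-FLAG and below 0 in myc2-3, and root values for light stay within the threshold in both lines.

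Roots held less of these transcripts than shoots. Averaged over the 4 conditions, 8 of 10 were called higher in shoots in myc2-3, against 48% of all genes called in either direction, and 9 of 10 in MYC2-FLAG, against 45.8%. GBSS1 differed most, by 4.42 ± 0.12 in myc2-3 and by 3.95 ± 0.13 in MYC2-FLAG, and its root libraries held only between 9 and 44 counts each. GWD1 followed with 2.93 ± 0.07 in myc2-3 and 3.82 ± 0.07 in MYC2-FLAG, and AMY3 with 2.23 ± 0.06 in myc2-3 and 3.01 ± 0.06 in MYC2-FLAG. ISA3 was not called in either line, at 0.28 ± 0.05 in myc2-3 and 0.92 ± 0.05 in MYC2-FLAG, and in myc2-3 its shoot and root libraries overlapped. BAM1 also was not called in myc2-3. There its condition means ran from 66.7 to 144 CPM in shoots and from 51.0 to 80.9 CPM in roots. The median of all genes was -0.12 in myc2-3 and -0.14 in MYC2-FLAG. In whole shoots and roots, fewer cells of a type and less RNA per cell cannot be told apart.

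In roots, genes were called between the lines under NC +BFO and LP +BFO only. In single root conditions 11.1% to 17.3% of all genes were called, and these small counts say nothing particular of the 10 genes. Under NC +BFO, 3 of 10 were called, against 11.7% of all genes. That count was 1 to 2 when any of its libraries was left out. PWD had 31.0, 38.6 and 32.1 CPM in myc2-3 roots against 66.9, 76.9 and 79.9 CPM in MYC2-FLAG roots (-1.14 ± 0.13, adjusted p = 3.91e-09), and DPE1 had 15.9, 12.9 and 13.8 CPM in myc2-3 roots against 25.9, 29.5 and 30.9 CPM in MYC2-FLAG roots (-1.02 ± 0.13, adjusted p = 6.52e-08). GBSS1 was higher in myc2-3, with 43, 28 and 26 counts against 9, 13 and 24 counts in MYC2-FLAG (1.09 ± 0.33, adjusted p = 9.00e-03). Under LP +BFO only GBSS1 was called (1.13 ± 0.35), 1 of 10 against 14.5%. DPE1 lost its call without replicate 2 or 3 of either line (down to -0.95). GBSS1 lost its call under NC +BFO without replicate 1 of myc2-3 (0.87) or replicate 1 or 2 of MYC2-FLAG, and under LP +BFO without replicate 1 of myc2-3 or replicate 3 of MYC2-FLAG (0.89).

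Without the community 0 of 10 were called in roots under NC (11.1% of all genes) and 0 under LP (17.3%), and over the mean of the 4 conditions 0 of 10 were called (1.33%). In that mean, DPE1 had the most negative log2 fold change, -0.64 ± 0.07, followed by PWD at -0.39 ± 0.06, ISA3 at -0.35 ± 0.05 and GWD1 at -0.31 ± 0.07. Differences below the fold threshold were nevertheless present without the community: AMY3 came to 0.60 ± 0.12 under NC (adjusted p = 7.82e-05) and DPE1 to -0.71 ± 0.13 under LP (adjusted p = 3.01e-05), both with no overlap between the lines. At an unadjusted p under 0.05, edgeR gave 4 genes under NC −BFO, 3 under LP −BFO and 5 in the mean, and limma-voom and DESeq2 called 0 in each.

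**Figure D4:**
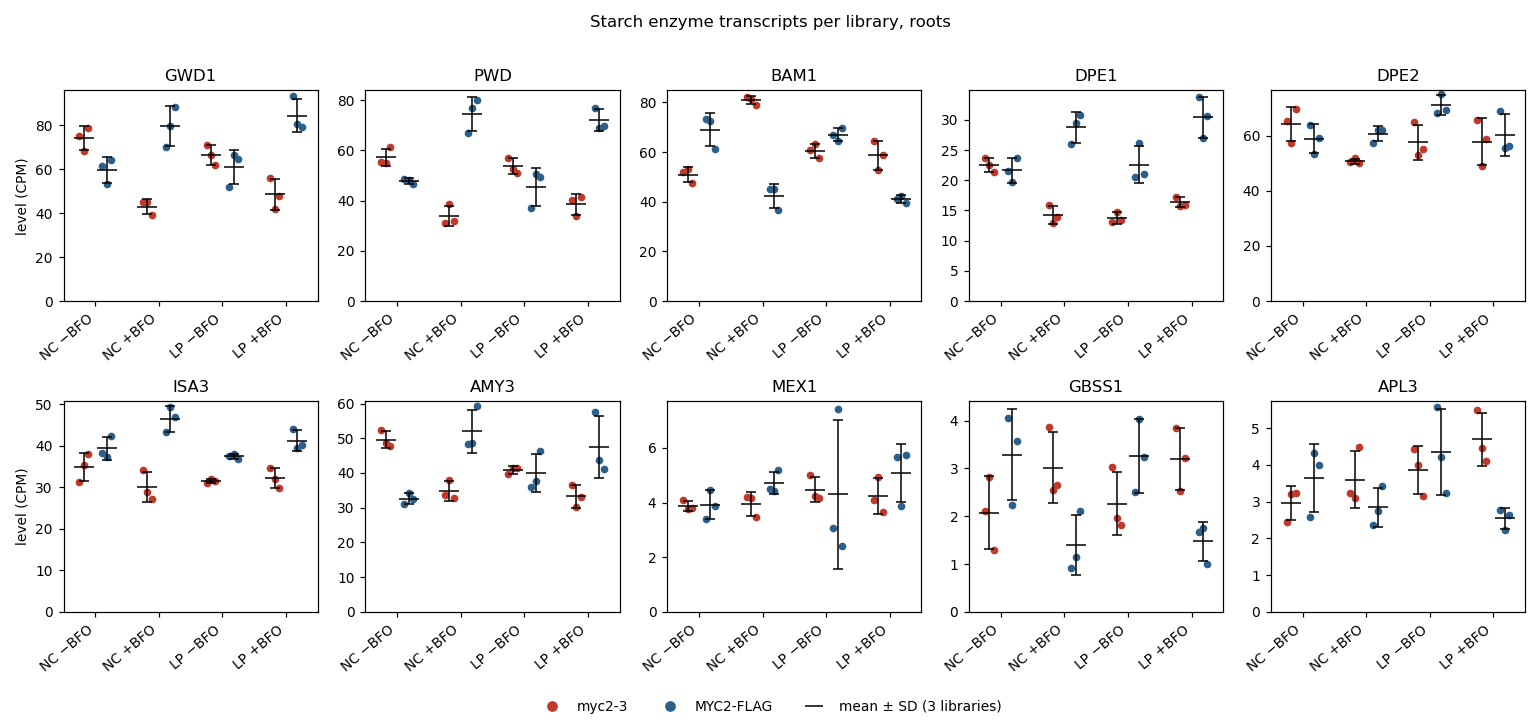
Levels of the 10 starch genes in every root library, in CPM on axes that start at 0, for the 4 conditions, with myc2-3 left of MYC2-FLAG; points are libraries and the black marks are the mean and SD of 3. Under NC with the community, PWD lies at 31.0 to 38.6 CPM in myc2-3 and at 66.9 to 79.9 CPM in MYC2-FLAG.

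The community responses of several genes differed between the lines in roots, the tissue in which all profiles with the same label were negatively correlated. PWD had 31.0, 38.6 and 32.1 CPM with the community against 55.4, 55.0 and 61.2 CPM without it in myc2-3 roots under NC (-0.75 ± 0.13), and 66.9, 76.9 and 79.9 CPM with it against 48.4, 48.4 and 46.7 CPM without it in MYC2-FLAG roots under NC (0.64 ± 0.13). Neither pair of groups overlapped, and neither value reached the fold threshold. The difference between the lines was called under NC for 6 of 10 genes, against 24.7% of all genes. It was negative for PWD (-1.39 ± 0.18), GWD1 (-1.20 ± 0.19), AMY3 (-1.18 ± 0.16) and DPE1 (-1.08 ± 0.18), and positive for GBSS1 (1.68 ± 0.45) and BAM1 (1.37 ± 0.27). Under LP it was called for PWD (-1.13 ± 0.18), GBSS1 (1.71 ± 0.46) and APL3 (1.04 ± 0.33), 3 of 10 against 33.9% of all genes, a share no higher than that of all genes. APL3 lost its call without any of 4 libraries: replicate 1 of MYC2-FLAG −BFO (0.83), replicate 2 of MYC2-FLAG +BFO, replicate 3 of myc2-3 −BFO or replicate 1 of myc2-3 +BFO. All 4 root markers (median 1.81) and 2 of the 4 leaf markers (median 1.25, all 4 positive) were also called higher in that difference under LP, the direction of GBSS1 and APL3, and their part in it was not tested.

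Within a line, the community changed only GBSS1 in roots beyond the threshold. In MYC2-FLAG roots it had 9, 13 and 24 counts with the community against 44, 31 and 33 counts without it under NC (-1.18 ± 0.33, adjusted p = 4.27e-03), and 15, 15 and 11 counts with it against 22, 43 and 35 counts without it under LP (-1.18 ± 0.34, adjusted p = 4.40e-03). Each was 1 of 10, against 12% of all genes under NC and 15.8% under LP, and each fell short of the fold threshold without either of 2 libraries (replicate 1 of either group under NC, down to -0.97; replicate 3 with or replicate 2 without the community under LP, down to -0.94). Under LP, 3 of the 4 leaf markers were also lower with the community in MYC2-FLAG roots (median -1.41) and 1 of the 4 root markers was lower. Under NC 1 leaf marker was called lower, but the other 3 had positive values (median of the 4 0.57), and 0 root markers were called. Their part in the GBSS1 values was not tested. In myc2-3 roots 0 of 10 were called under NC (8.92% of all genes) and 0 under LP (16.4%). At an unadjusted p under 0.05, edgeR gave 7 genes under NC and 3 under LP, and limma-voom and DESeq2 called 0 in both.

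Light did not bring any of the 10 genes past the threshold in roots. In all 4 comparisons the count was 0 of 10, against 4.73% of all genes in myc2-3 without the community, 3.8% in myc2-3 with it, 4.19% in MYC2-FLAG without it and 0.882% in MYC2-FLAG with it. At an unadjusted p under 0.05, edgeR gave 2, 1, 2 and 0 genes in these comparisons, and limma-voom and DESeq2 called 0 in each. The log2 fold change farthest from 0 was -0.71 ± 0.13, for DPE1 in myc2-3 roots without the community. The difference of the light responses between the lines was called for 0 of 10 in roots by edgeR, limma-voom and DESeq2 (0.289% of all genes), with 2 genes at an unadjusted p under 0.05 in edgeR.

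Other starch genes were also lower in myc2-3 shoots under LP +BFO. Of 8 starch genes that the study names (SS1, SS3, ADG1, PGI1, LSF1, LSF2, SEX4 and BAM3), 8 were lower in myc2-3 and 0 higher, from BAM3 (AT4G17090), a beta-amylase, at -3.53 ± 0.34 to PGI1 (AT4G24620), the plastid phosphoglucose isomerase, at -1.01 ± 0.10. The study chose that list on these samples, so its direction is not independent evidence. Of 25 further starch genes tested, 11 were lower and 1 was higher, against 19.4% of all genes called in either direction, from BAM6 (AT2G32290) at -5.79 ± 0.38 to BAM4 (AT5G55700), a beta-amylase-like protein, at 1.23 ± 0.13, with a median log2 fold change of -0.99. Under NC −BFO only BAM3 was called among the 8, higher at 1.37 ± 0.31, and among the 25, 4 were higher and 2 lower, against 16.5% of all genes, from ISA2 (AT1G03310) at 1.36 ± 0.15 to BAM4 at -1.46 ± 0.13. Over the mean of the 4 conditions 0 of the 8 were called, and 1 of the 25 was lower and 0 higher (1.96% of all genes). Under NC +BFO 0 of the 8 were called and 3 of the 25 were higher (3.9% of all genes), and under LP −BFO 0 of the 8 were called and 1 of the 25 was lower (3.59%). Between the lines in roots, 1 of the 8 was higher under NC −BFO and 0 were called in the other conditions, and of the 25, 3 were higher and 0 lower under NC −BFO (11.1% of all genes), 1 higher and 3 lower under NC +BFO (11.7%), 3 higher and 1 lower under LP −BFO (17.3%), and 1 higher and 2 lower under LP +BFO (14.5%). These root counts lie near the shares of all genes and say nothing particular of the lists.

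Clock genes, taken as a list of 9, differed between the lines in the same shoots. Over the mean of the 4 conditions 2 were higher and 5 lower in myc2-3, against 1.96% of all genes called, from LHY (AT1G01060) at 2.41 to ELF4 (AT2G40080) at -4.40. GI (AT1G22770), an evening-phased clock gene, had log2 fold changes under normal light of -1.12 germ-free and -0.83 with the community, and under low light of -1.36 germ-free and -1.97 with it. Its levels ranged from 49.7 to 102 CPM in myc2-3 shoots and from 131 to 267 CPM in MYC2-FLAG shoots. The part of the clock genes in the differences of the starch genes was not tested.

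Over the 24 shoot libraries, the log2 levels of PWD, AMY3 and GWD1 moved together. Pearson's r was 0.952 for PWD with AMY3 (0.869 within the 12 myc2-3 libraries and 0.739 within the 12 MYC2-FLAG libraries), 0.942 for GWD1 with AMY3 (0.859 and 0.840) and 0.937 for GWD1 with PWD (0.920 and 0.894). PWD with ISA3 gave 0.856 over all 24 libraries but -0.115 within myc2-3 and -0.002 within MYC2-FLAG, so that relation rests on the difference between the lines. In roots GWD1 and PWD gave 0.949 over 24 libraries, 0.960 within myc2-3 and 0.930 within MYC2-FLAG, and each was among the 3 genes most like the other. These values describe libraries that share line, light and community, and carry no test.

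The gene most like GWD1 in shoots, of 21097 others, was PGM1 (AT5G51820), the plastid phosphoglucomutase of starch synthesis, with r = 0.969. It was followed by FNR2 (AT1G20020), a ferredoxin-NADP reductase, at 0.969 and AT2G31040 at 0.967. PWD was most like THIC (AT2G29630), an enzyme of thiamine synthesis, at 0.976, AT5G23240 at 0.972 and GI at 0.966. AMY3 was most like LDA (AT5G04360), the limit dextrinase that debranches glucans, at 0.969, PGM1 at 0.968 and AT2G47390 at 0.953. DPE2 was led by PGI1 at 0.955, and DPE1 had PHS1 (AT3G29320), the plastid glucan phosphorylase, among its 3 nearest at 0.860. In roots PHS1 was the gene most like DPE1, at 0.941. GBSS1 was most like NUDX19 (AT5G20070) at 0.964 and CH1 (AT1G44446), the chlorophyllide a oxygenase, at 0.962. ISA3 was led by AT3G16180 at 0.957, BAM1 by NIT4 (AT5G22300) at 0.908, APL3 by AT5G16990 at 0.913, and MEX1 by AT4G16750 at 0.826. All these values pool both lines, and r within a line was not taken for these neighbours. As for PWD with ISA3, a high r can rest on the difference between the lines.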

How the data were processed

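RNA was sequenced from 48 libraries of shoots and roots, 3 per condition. Per the labels and the study's methods, the authors aligned the reads to TAIR10 with TopHat2 and counted them over exons by strand with HTSeq, and they deposited raw counts per gene for each line (2 sequencing projects). The study's methods give a number of myc2-3 samples in which viral reads were the larger share, without naming the samples, and judge the effect on the plant transcriptome from how samples clustered. Its part in the comparisons of the lines was not tested here. The 5 summary lines of the counter were left out, and genes with a total above 100 counts were kept. R 4.3.3 and edgeR 4.0.16 were used with TMM scaling, 1 mean per condition over all 48 libraries, and the quasi-likelihood test, with legacy fitting as the default. The SE is the absolute log2 fold change over the square root of F. Genes were called at a log2 difference of 1 or more in either direction with p under 0.05 after Benjamini-Hochberg adjustment over all genes of a comparison. In all, 34 comparisons were made without adjustment across them. Comparisons of light, community and lines share libraries. Labels name no separate plants or cultures behind replicates, so p-values measure the spread between these libraries. Named were the 10 genes in every condition, MYC2, the called extremes of the other starch lists, clock genes and the 3 genes most like each. The genes and lists were chosen with earlier results of these data known. Likeness is Pearson's r of log2 CPM (prior count 2). The alternative settings comprised DESeq2 1.42.0, its size factors in edgeR, limma-voom from limma 3.58.1, no filter, filterByExpr, separate fits by tissue, a replicate block, organellar genes left out, non-legacy fitting and each library left out in turn. The test was checked on simulated data.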

Additional observations from a re-analysis of the deposited data

Results flagged for a closer look

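The response to light or to the community differed between myc2-3 and MYC2-FLAG for 8 of the 10 genes, in 17 values (edgeR, difference of log2 fold changes, myc2-3 minus MYC2-FLAG). All depend on the condition labels, which went against each other between the lines, and line and sequencing project cannot be told apart. By comparison, the genes called for light in shoots were 3 of 10 against 18.5% of all genes. For the community in shoots they were 1 of 10 under NC against 11.2% and 4 of 10 under LP against 15.9%. For the community in roots they were 6 of 10 under NC against 24.7% and 3 of 10 under LP against 33.9%. The shoot NC and root LP values for the community are thus no more frequent than among all genes, and the count for light in shoots lies near its share. In that light difference 5 of the 8 starch genes the study names and 9 of the 25 further starch genes were called too. For light in shoots the differences were -2.82 for GBSS1, -1.27 for APL3 and -1.22 for DPE2. For the community in shoots they were -1.35 for APL3 under NC, and under LP -1.46 for GWD1, -1.29 for BAM1, -1.29 for DPE2 and -1.26 for GBSS1. For the community in roots under NC they were -1.39 for PWD, -1.2 for GWD1, -1.18 for AMY3, -1.08 for DPE1, 1.37 for BAM1 and 1.68 for GBSS1. Under LP they were -1.13 for PWD, 1.71 for GBSS1 and 1.04 for APL3. Their causes were not tested.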

How the results depend on the processing

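Of 340 values for the 10 genes, 66 were called, and none reversed a call under any alternative run. Calls were neither lost nor gained under limma-voom, filterByExpr (20687 genes), the replicate block (0 lost, 0 gained), without organellar genes, or with non-legacy fitting, which was added after seeing the data. DESeq2, and its size factors in edgeR, each lost 2 calls and gained 4, and no filter lost 1 and gained 2. Separate fits by tissue, which give 320 values, lost 2 calls. The mean of NC +BFO and LP −BFO, also chosen after seeing the data, lost GWD1 and gained ISA3. The replicate numbers showed no pairing of libraries throughout: in 0 of 24 comparisons did all pairs correlate above 0.1 (-0.237 to 0.454). The community comparison of MYC2-FLAG shoots under NC gave 0.245, 0.454 and 0.0548, so a pairing in single comparisons remains possible. The number of starch genes called under NC −BFO in shoots was 3 with DESeq2 and with its size factors, against 5. For light in myc2-3 shoots with the community it was 2 with both, against 1. For the community in MYC2-FLAG shoots under LP it was 0 with separate fits, against 2. For the difference of community responses in shoots under NC it was 2 with DESeq2, its size factors and no filter, against 1. The cause was not tested. Leaving out each library in turn lost 31 and gained 26 calls over 3360 values, most of which were not called in the main fit. Counts ranged from 3 to 6 (shoot NC −BFO), 1 to 2 (root NC +BFO, from 3), 0 to 1 (root LP +BFO), 0 to 2 (light, myc2-3 shoots +BFO), 1 to 3 (light, MYC2-FLAG shoots −BFO), 1 to 2 (community, myc2-3 shoots NC), 0 to 1 (community, MYC2-FLAG shoots NC), 0 to 2 (community, MYC2-FLAG shoots LP), 0 to 1 (community, MYC2-FLAG roots, NC and LP) and 1 to 2 (difference of community responses, shoots NC). GBSS1 in roots rests on 9 to 44 counts a library.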
